A study of Mus musculus with 6 samples.

Results

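The clustered protocadherins are a family of cell-surface cadherins encoded side by side in the alpha, beta and gamma clusters. All genes of the count table whose symbol names a numbered member of one of the 3 clusters were taken, which gave 49 of 17128 genes. They comprised 6 alpha, 21 beta and 22 gamma genes, the last divided into 12 of the A, 7 of the B and 3 of the C type. Clustered protocadherins bind the same isoform on a facing cell through their extracellular cadherin repeats. In the alpha and gamma clusters each variable exon has its own promoter and is spliced to constant exons that encode a shared cytoplasmic end, whereas a beta gene is a single coding exon with no constant part. The family is best known from neurons, in which each cell uses its own combination of isoforms and dendrites and axons use them for self-recognition, and the C-type isoforms are known for a less variable choice from cell to cell.

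The series compared bone marrow stromal cells of the mouse femur with and without CXCL12, the chemokine that holds blood-forming cells in the marrow. The 3 control libraries held GFP+ cells of Cxcl12(GFP/fl); R26R(tdTomato/+) mice, and the 3 CXCL12-deficient libraries held GFP+tdTomato+ cells of Cxcl12(GFP/fl); Col2a1-cre; R26R(tdTomato/+) mice, all at postnatal day 21. Both groups therefore carried the GFP knock-in, the floxed allele and the reporter allele. The groups differed at once in the gate, in the cre transgene and in the state of the floxed allele, and the cre marks only descendants of Col2a1-expressing cells, so that these differences cannot be told apart. About 20000 sorted cells entered each library, and the sort pools cells, so the choice of isoforms in single cells was not measured. The labels do not say that the libraries came from separate animals, and p-values then measure only the spread between these libraries, which may be technical.

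Total counts were 20133299 to 28009257 per library, so that 1 read was worth 0.0357 to 0.0497 CPM (reads relative to the library total) before scaling. Cxcl12 was lower in the CXCL12-deficient libraries, with 3876, 3673 and 3694 CPM in controls against 1423, 1280 and 1163 CPM (log2 fold change −1.54 ± 0.17, SE; adjusted p = 0.0053, edgeR quasi-likelihood test with Benjamini-Hochberg adjustment). The 7 marrow stromal reticular markers analysed besides Cxcl12 summed to 2792 to 3197 CPM in controls and to 4056 to 5804 CPM in CXCL12-deficient libraries. All 7 had a positive log2 fold change, against 52.6% of all genes, and their median was 0.68. Adipoq and Ebf3 were called higher by edgeR, 2 of 7 against 0.639% of all genes. At an unadjusted p below 0.05 (edgeR), 6 of 7 were higher, against 7.59% of all genes. Markers of other cells moved too. The 5 neutrophil markers summed to 10084 to 14329 CPM in controls and 1589 to 4334 in CXCL12-deficient libraries, with 5 of 5 lower by the test. The 5 endothelial markers summed to 59.3 to 88.0 against 10.4 to 14.95 CPM, with 4 of 5 lower. Over all genes 3.94% were called lower (edgeR). Osteoblast markers differed widely within a group. The 4 of them summed to 13336, 3315 and 2094 CPM in controls and 4731, 9521 and 3899 in CXCL12-deficient libraries, with 0 called (edgeR). Control replicate 1 was the highest. Megakaryocyte markers summed to 62.3 to 218 CPM in controls and 4.26 to 9.77 in CXCL12-deficient libraries, with 3 of 3 lower (edgeR). B lineage markers summed to 198 to 556 against 48.2 to 147 CPM, with 2 of 3 lower. The erythroid markers summed to 1510, 1983 and 2305 CPM in controls and 3930, 3259 and 968 in CXCL12-deficient libraries, with 0 called. The part of all these cells in the results on protocadherins was not tested. In such bulk libraries fewer cells of a type and less RNA per cell cannot be told apart.

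All 3 clusters lie on the plus strand of chromosome 18 (GRCm38, GENCODE M21). The alpha members with a match in that annotation lie between 36939205 and 37187657, a span of 248 kb, the beta members between 37294812 and 37524479, a span of 230 kb, and the gamma members between 37661793 and 37841873, a span of 180 kb. Pcdha10 had no single match. Pcdhac1 and Pcdhb1 were not analysed here, nor were other annotated alpha genes such as Pcdha1 and Pcdha7. Totals of the alpha cluster below therefore cover only its 6 genes in the count table. The exons of a gamma gene include the constant exons at the end of the cluster, which every gamma gene shares, so that at least 2116 exonic bases of each were shared with other coding genes. The number was 2119 for most, and 2224 for Pcdhgb4, 2227 for Pcdhga8, 3154 for Pcdhgb1 and 3157 for Pcdhga4. An exon of Pcdhgb1 overlaps the variable exon of Pcdhga4. The 5 matched alpha genes shared 2860 such bases each. Of the 21 beta genes 19 shared none, and Pcdhb21 and Pcdhb22 shared 455. How the authors assigned reads from shared or similar sequence is not given in the sources used here. The counts of alpha and gamma members could be split or lost to an unknown degree.

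Reads lay mainly in the beta cluster. Over the 6 libraries the beta members together had 20653 reads, the gamma members 9189 and the alpha members 137. In the median, a beta member had 878 reads over all libraries (range 29 to 4877), a gamma member 248 (22 to 3993) and an alpha member 8 (2 to 102). Reads were present in all 6 libraries for 19 of 21 beta, 17 of 22 gamma and 0 of 6 alpha members. The beta cluster held 68.0% ± 5.51 (SD, n = 3) of the reads of all members in controls and 70.04% ± 3.65 in CXCL12-deficient libraries, and the gamma cluster held 31.3% ± 5.09 and 29.7% ± 3.81. The division of reads between the clusters thus differed by less than the spread between libraries.

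The alpha members were at or near the detection limit. Pcdhac2, a C-type isoform known from the tiling of serotonergic axons, had 60, 3 and 9 reads in controls and 0, 0 and 30 reads in CXCL12-deficient libraries. The highest library of each group held most of its reads and the groups overlapped. It was the only alpha member that passed the filter on low counts, with a log2 fold change of −1.02 ± 1.61 (adjusted p = 0.80, edgeR), and without control replicate 1 the value was 0.68. Pcdha12 had 15 reads in CXCL12-deficient replicate 1 and 0 elsewhere, and Pcdha2 had 9 reads in control replicate 2 and 0 elsewhere. Pcdha9 had 4 and 3 reads in control replicates 2 and 3, Pcdha10 had 1 read in each of the same libraries, and Pcdha8 had 2 reads in control replicate 3, with 0 elsewhere. Reads of 3 alpha members came from a single library. All alpha members together summed to 2.14, 0.691 and 0.709 CPM in controls and 0.625, 0 and 1.33 in CXCL12-deficient libraries, and no difference was detectable at this depth.

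Among beta members Pcdhb9 was the most abundant in every library. It had 27.6, 29.2 and 32.0 CPM in controls and 36.5, 34.2 and 46.5 in CXCL12-deficient libraries. Every CXCL12-deficient library was above every control, but the difference did not pass the test (1.32-fold higher, log2 fold change 0.40 ± 0.19, adjusted p = 0.29, edgeR). Pcdhb9 took 22.6% to 25.1% of beta reads in a library. Per kilobase of exon it stood at 9.03 to 15.2 CPM per kb over the 6 libraries, above Pcdhb20 at 2.25 to 3.57 and Pcdhb17 at 1.40 to 4.28 CPM per kb, so its place at the head of the cluster exceeded the spread between libraries. The next members were not separated by their spread: the means over 6 libraries were 2.89 CPM per kb for Pcdhb20, 2.88 for Pcdhb17, 2.77 for Pcdhb10 and 2.59 for Pcdhb7. The place of Pcdhb12 depended on the length used. Of its 3034 exonic bases 1927 overlap Gm37446, a gene annotated on the opposite strand, and its level was 6.23 CPM per kb of exon shared with no other gene, which placed it next after Pcdhb9, and 2.27 CPM per kb of exon shared with no other coding gene. The strand setting of the counts is not given in the sources used here. Reads of the antisense gene cannot be told apart.

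**Figure D1:**
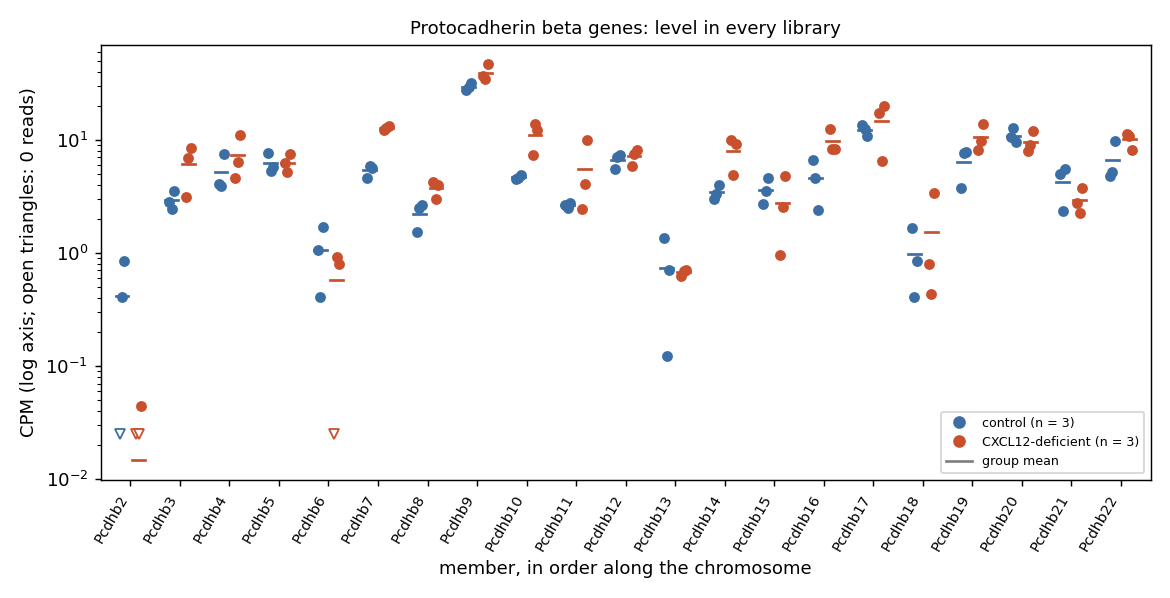
CPM of each beta member in every library on a log axis, with members in their order along the chromosome, controls and CXCL12-deficient libraries as coloured points, short lines for group means and open triangles for 0 reads. Pcdhb9 sits above the other beta members in all 6 libraries, and Pcdhb7 shows 3 CXCL12-deficient points at 12.3 to 13.1 CPM above 3 control points at 4.57 to 5.89 CPM.

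Gamma reads were led by Pcdhgc3, a C-type member known to bind Axin1 and to dampen canonical Wnt signalling. It had 33.5, 17.3 and 16.7 CPM in controls and 29.1, 37.1 and 32.3 in CXCL12-deficient libraries. Control replicate 1 was at the level of the CXCL12-deficient libraries and the groups overlapped (22.5 ± 9.56 against 32.8 ± 4.02 CPM, SD; log2 fold change 0.54 ± 0.29, adjusted p = 0.35, edgeR). The log2 fold change was 0.93 without control replicate 1 (adjusted p = 0.060, edgeR) and 0.36 without control replicate 3. Pcdhgc3 was the highest gamma member in every library and held 30.6% to 52.7% of gamma reads. Per kilobase of exon shared with no other coding gene it reached 4.93 to 11.0 CPM per kb over the 6 libraries, a range that met that of Pcdhb9 and lay above that of Pcdhga4, which was 0.318 to 3.85 CPM per kb. Which member led the whole family changed with the length: Pcdhgc3 stood at 15.2 and Pcdhb9 at 11.2 CPM per kb where bases under any other annotated gene were left out, and at 8.18 and 11.2 where only bases of other coding genes were left out. Of the exonic bases of Pcdhgc3, 1559 overlap the antisense gene BC037039.

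The other C-type gamma members were lower. Pcdhgc4, known for its role in the survival of neurons, had 2.28, 1.30 and 3.92 CPM in controls and 4.08, 2.09 and 4.66 in CXCL12-deficient libraries, with overlapping groups (log2 fold change 0.53 ± 0.55, adjusted p = 0.68, edgeR). Pcdhgc5 had reads in 3 libraries, 10 in control replicate 3 and 34 and 7 in CXCL12-deficient replicates 2 and 3, and was not tested. The remaining gamma members, of the A and B types, were each at most 8.61 CPM in any library. Pcdhga4 had 3.39, 3.25 and 3.54 CPM in controls, 3 closely spaced values, but 0.50, 5.10 and 6.04 in CXCL12-deficient libraries, which lay both below and above them. No difference was called (log2 fold change 0.19 ± 0.73, adjusted p = 0.92, edgeR). Pcdhgb8, annotated as a polymorphic pseudogene, had 0 reads in all controls and 18, 2 and 2 reads in CXCL12-deficient libraries, and was too low to be tested.

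**Figure D2:**
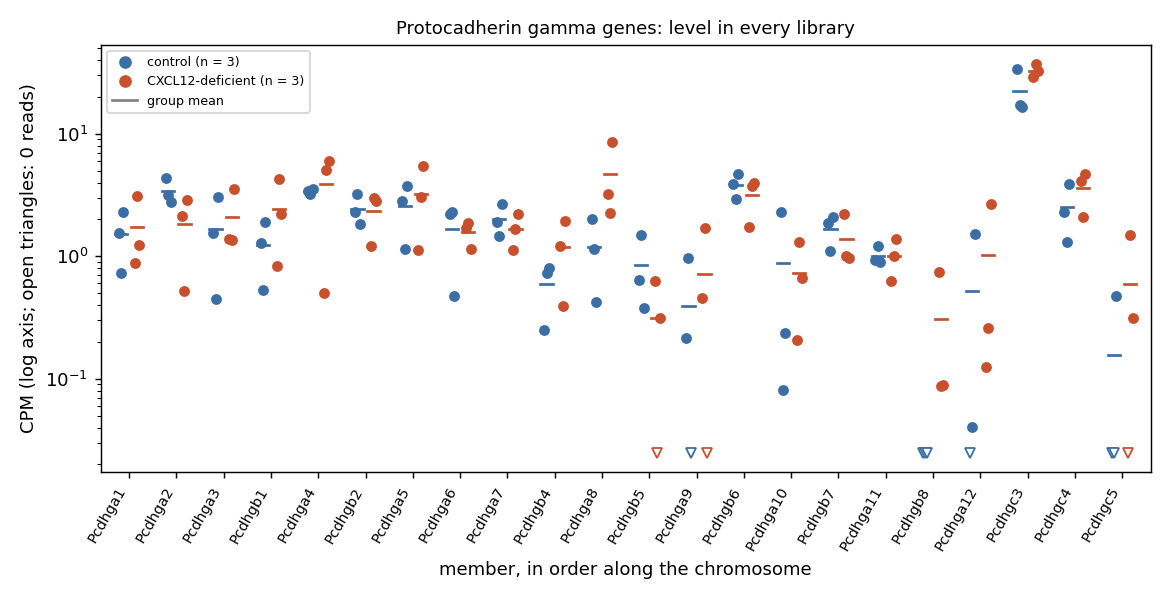
CPM of each gamma member in every library on a log axis, in the order along the chromosome, with group means as short lines and open triangles for 0 reads. Pcdhgc3 at the end of the cluster stands at 16.7 to 37.1 CPM, and the points of the A and B types lie between 0 and 8.61 CPM with overlapping colours for most members.

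CXCL12-deficient libraries were then compared with controls. Of the 49 members, 40 passed the filter on low counts (20 beta, 19 gamma and 1 alpha). Pcdha2, Pcdha8, Pcdha9, Pcdha10, Pcdha12, Pcdhb2, Pcdhga12, Pcdhgb8 and Pcdhgc5 did not. Pcdhb7 rose and 0 members fell. Across all 13926 genes tested 0.639% were called higher and 3.94% lower at an adjusted p below 0.05 (edgeR), and the higher call among the 40 members rests on this single gene. At an unadjusted p below 0.05, edgeR gave 6 members higher, against 7.59% of all genes, and 0 lower, against 11.3%. With DESeq2, 3 members were called higher (background 1.94%) and 0 lower (6.65%). Those 3 were Pcdhb7, Pcdhb10 and Pcdhb14.

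Pcdhb7 is a single-exon gene of 3501 bases at 37341702 to 37345202 of chromosome 18. Its level was 4.57, 5.89 and 5.67 CPM in controls and 12.3, 12.8 and 13.1 in CXCL12-deficient libraries. The CXCL12-deficient libraries were all higher and lay close together. The difference was 2.37-fold (5.38 ± 0.709 against 12.7 ± 0.429 CPM, SD, n = 3 each; log2 fold change 1.24 ± 0.26, SE, adjusted p = 0.034, edgeR). An exact two-sided permutation of the 6 libraries gave p = 0.1, the smallest that 3 against 3 allows. The log2 fold change was 1.12 to 1.32 with any 1 library left out, but the adjusted p was then 0.065 to 0.13, so the call was made in 0 of the 6 smaller comparisons. Relative to the other beta members it was also higher, at 3.97%, 5.06% and 4.34% of beta reads in controls and 7.93%, 8.53% and 6.38% in CXCL12-deficient libraries, again without overlap. Of the 50-base stretches of Pcdhb7, 8.57% also occur in another member, most of them in Pcdhb9, so a share of its reads may not be unique to it.

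Pcdhb10 showed a difference of like size with more spread. It had 4.50, 4.59 and 4.87 CPM in controls and 7.37, 13.7 and 12.3 in CXCL12-deficient libraries. Groups did not overlap, and CXCL12-deficient replicate 1 was nearest to the controls (log2 fold change 1.26 ± 0.32, adjusted p = 0.065, edgeR). The adjusted p was 0.0082 with DESeq2 and 0.038 with edgeR without CXCL12-deficient replicate 1. Pcdhb14, chosen here after its values were seen because DESeq2 called it, had 2.999, 3.29 and 4.02 CPM in controls and 9.997, 4.84 and 9.15 in CXCL12-deficient libraries. Its groups did not overlap either, and its adjusted p was 0.12 with edgeR and 0.045 with DESeq2. The gamma member with the greatest fold change was Pcdhga8, at 1.999, 1.14 and 0.43 CPM in controls and 3.21, 2.27 and 8.61 in CXCL12-deficient libraries. CXCL12-deficient replicate 3 was far above the rest, and the 3.92-fold difference did not pass the test (log2 fold change 1.97 ± 0.72, adjusted p = 0.18, edgeR; 1.20 without that replicate). At the other end, Pcdhgb5 had 0.64, 1.504 and 0.38 CPM in controls and 0.62, 0 and 0.31 in CXCL12-deficient libraries (log2 fold change −1.41 ± 1.17, adjusted p = 0.58, edgeR). Pcdhac2, described above, followed at −1.02. The lowest log2 fold change among beta members was that of Pcdhb6, at −0.88 ± 1.17. The groups overlapped at each of these.

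The abundant beta members Pcdhb20 and Pcdhb12 gave no call. Pcdhb20 had 10.5, 12.7 and 9.50 CPM in controls and 7.997, 9.03 and 11.9 in CXCL12-deficient libraries (log2 fold change −0.18 ± 0.28, adjusted p = 0.79, edgeR). Pcdhb12 had 5.50, 7.07 and 7.37 against 5.83, 7.46 and 8.17 CPM (0.11 ± 0.31, adjusted p = 0.90, edgeR). The groups overlapped at both. The beta members Pcdhb3, Pcdhb4, Pcdhb8, Pcdhb11, Pcdhb16, Pcdhb18, Pcdhb19 and Pcdhb22 had log2 fold changes of 0.51 to 1.09 with no call, Pcdhb5 and Pcdhb17 of 0.01 and 0.26, and Pcdhb13, Pcdhb15 and Pcdhb21 of −0.11, −0.38 and −0.55. Pcdhb2 had 0, 10 and 18 reads in controls and 0, 0 and 1 read in CXCL12-deficient libraries. Among gamma A members not yet named, Pcdhga1, Pcdhga3, Pcdhga5, Pcdhga6, Pcdhga7 and Pcdhga11 lay between −0.27 and 0.33 and Pcdhga2 at −0.89, and among gamma B members Pcdhgb2, Pcdhgb6 and Pcdhgb7 lay between −0.28 and −0.07, with Pcdhgb1 at 0.98 and Pcdhgb4 at 0.99. Pcdhga9, Pcdhga10 and Pcdhga12 varied widely within a group: Pcdhga9 had 6, 24 and 0 reads in controls and 11, 39 and 0 reads in CXCL12-deficient libraries, and Pcdhga12 had 0, 1 and 32 reads in controls and 3, 6 and 60 reads in CXCL12-deficient libraries.

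**Figure D3:**
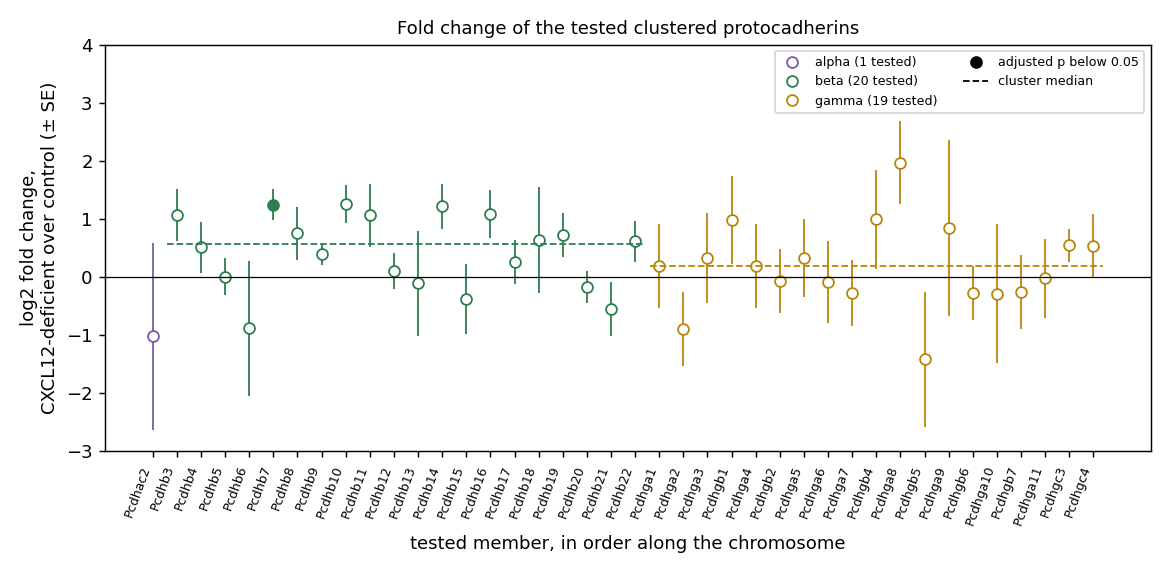
Log2 fold change (CXCL12-deficient over control) with its SE for the 40 tested members in chromosome order, coloured by cluster, with filled points for an adjusted p below 0.05 and dashed lines for cluster medians. Pcdhb7 is the only filled point, the beta median lies at 0.56 and the gamma median at 0.19.

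Beta members were more often higher than lower. The log2 fold change was positive for 15 of 20 tested beta members and for 10 of 19 gamma members, where 52.6% of all genes tested were positive. The median was 0.56 over the beta members (range −0.88 to 1.26), 0.19 over the gamma members (−1.41 to 1.97) and 0.03 over all genes tested. With 1 library left out the gamma median ran from −0.14, without CXCL12-deficient replicate 3, and −0.06, without replicate 2, to 0.51, without replicate 1, so its direction rested on single libraries. By type, the gamma median was 0.19 for A, −0.16 for B and 0.54 for C. All 3 CXCL12-deficient libraries exceeded all controls at 7 of 20 beta members (Pcdhb7, Pcdhb8, Pcdhb9, Pcdhb10, Pcdhb14, Pcdhb16 and Pcdhb19) and at 1 of 19 gamma members (Pcdhga8), where 11.7% of all genes did. The reverse held for 0 of 40 members and for 13.9% of all genes. These are descriptions of a family, not of independent genes, and passing the filter can favour members that are high in a group. The sums below keep every member.

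Summed over all 21 members, the beta cluster reached 115, 116 and 131 CPM in controls and 155, 150 and 206 in CXCL12-deficient libraries. Every CXCL12-deficient library was above every control, and CXCL12-deficient replicate 3 was the highest (121 ± 8.67 against 170 ± 31.1 CPM, SD, a ratio of 1.41). Without Pcdhb7 the ratio was 1.37 and without Pcdhb9 it was 1.44, and the groups stayed apart in both. The gamma sum was 69.1, 44.5 and 54.5 CPM in controls and 55.2, 76.3 and 85.6 in CXCL12-deficient libraries. Those groups overlapped (56.1 ± 12.4 against 72.4 ± 15.6 CPM, a ratio of 1.29), and without Pcdhgc3 the ratio was 1.18. The log2 ratio of the beta sum was 0.50 with all libraries and 0.34 to 0.58 with any 1 library left out. The values over single members moved more with CXCL12-deficient replicate 3: without it the beta median was 0.089 in place of 0.56, and 12 of 21 tested beta members were positive. That library was the highest of the 6 for 10 of 20 beta and 7 of 19 gamma members. How often it was the highest over all genes was not measured. It also had the highest stromal reticular marker sum of the 6, at 5804 CPM. Its neutrophil, B lineage and erythroid marker sums were the lowest, at 1589, 48.2 and 968 CPM. The stromal reticular marker sum given above was higher in the same direction as the beta sum. Over those 7 markers the median log2 fold change was 0.68, beside 0.56 over the beta members. Leukocyte, megakaryocyte and endothelial markers were lower. The part of all these cell types in the result was not tested.

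**Figure D4:**
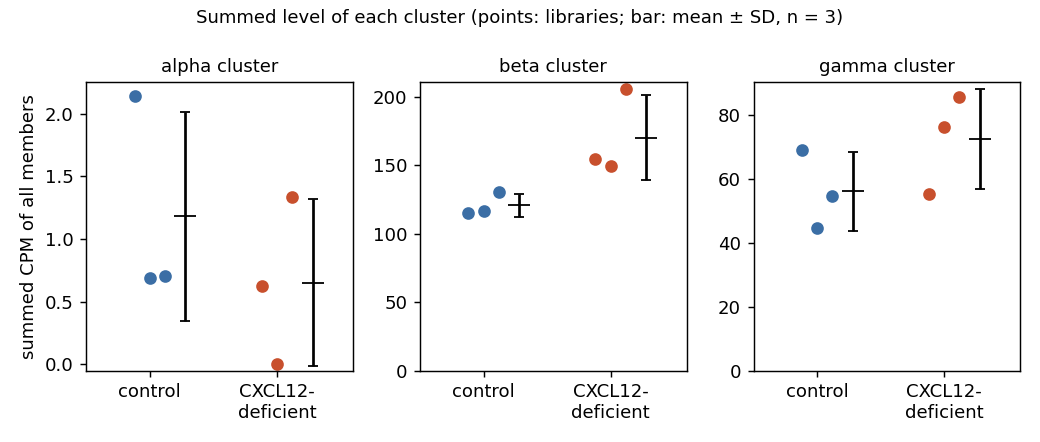
Summed CPM of all members of each cluster, with 1 point per library and bars for the mean ± SD (n = 3). The beta points of the CXCL12-deficient group (150 to 206 CPM) lie above those of the controls (115 to 131 CPM), while the alpha and gamma points overlap.

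Within the beta cluster the order of members by read level was similar between libraries, in the median more so within a group than between groups. Spearman's rho between the read levels of 21 beta members in 2 libraries was 0.80 to 0.88 within a group (6 pairs, median 0.83) and 0.64 to 0.85 between groups (9 pairs, median 0.74). For 22 gamma members it was 0.29 to 0.74 within a group (median 0.57) and 0.44 to 0.77 between groups (median 0.56). These are descriptions over genes that share a library and differ in length. Shares of the reads of a cluster add up to a whole, so that a higher share of some members lowers that of others. The share of beta reads was higher without overlap in CXCL12-deficient libraries for 3 members and lower for 5, and overlapped for 13. For gamma members these counts were 2, 3 and 17. They have no counterpart over all genes. Pcdhb9 took 24.0%, 25.1% and 24.5% of beta reads in controls and 23.5%, 22.8% and 22.6% in CXCL12-deficient libraries, although its CPM was higher there. For position along the chromosome, rho of the level per kb with gene order was 0.06 over 21 beta and −0.32 over 22 gamma members, and that of the log2 fold change was −0.19 over 20 and 0.01 over 19.

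Libraries of the same group differed more at these genes than at most others. The biological coefficient of variation, edgeR's estimate of the spread between libraries beyond counting error, had a median of 0.364 over beta members, 0.588 over gamma members and 0.244 over all genes tested. Low genes vary more in general, and the members were low, with a median level of 2.67 (beta) and 0.94 (gamma) log2 CPM against 4.61 for all genes. At the members' own level the trend over all genes was 0.398 for beta and 0.617 for gamma, and 5 of 20 beta and 9 of 19 gamma members lay above their trend, against 30.3% of all genes. In the median both the beta and the gamma members therefore lay under the trend at their level, although the share above it was greater for gamma members than for all genes. A difference of more than 5 times between 2 libraries of the same group, counting a value of 0 as one, was found for 4 of 20 beta and 7 of 19 gamma members and for 10.4% of all genes. Pcdhga10, at 2.32, 0.08 and 0.24 CPM in controls, was one of them. Of its 50-base stretches 100% also occur in Gm26672, a gene annotated on the opposite strand. Reads of the 2 genes cannot be told apart without the strand setting.

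**Figure D5:**
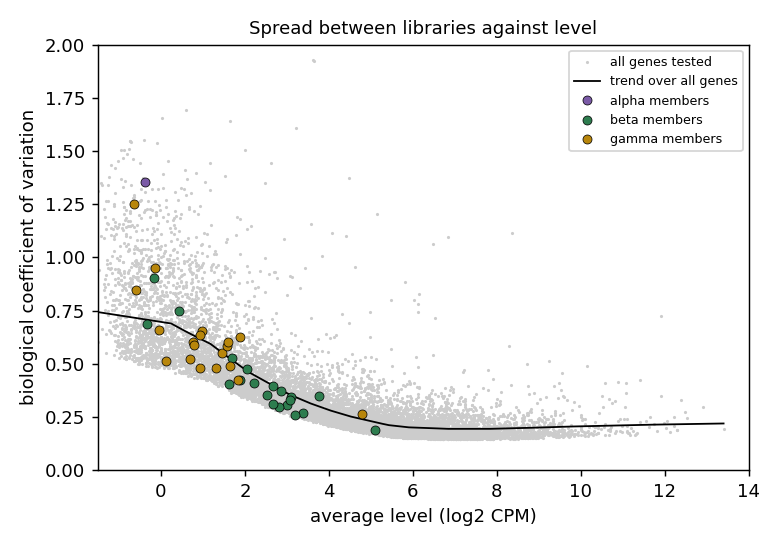
Biological coefficient of variation against average level (log2 CPM) for all genes tested (grey), with the trend as a line and the tested members coloured by cluster. Beta members lie mostly near or under the trend, with 5 of 20 above it, and gamma members scatter to both sides, with 9 of 19 above.

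Similarity of sequence bears on how well members can be counted apart. Over the exon bases shared with no other coding gene, a median of 3.60% of the 50-base stretches of a beta member (1.504% to 11.99%) also occurred in another member, and 0.810% of those of a gamma member (0% to 16.8%). Pcdhb12 was the highest beta member and Pcdhb14 the lowest. Pcdhb9 had 8.75% and Pcdhb10 7.21%. Among gamma members Pcdhgb1 and Pcdhgb2 had most of their shared stretches in each other. For the C-type members Pcdhgc3, Pcdhgc4 and Pcdhgc5 the share found in another member was 0%, although 44.7% of the stretches of Pcdhgc3 occurred in the antisense gene BC037039.

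Protocadherins outside the clusters were measured for comparison. Of 12 such genes 8 were tested, 0 were called in either direction by edgeR (0 at an unadjusted p below 0.05), and their median log2 fold change was −0.00. Pcdh18, the most abundant, had 40.9 ± 11.7 CPM in controls and 42.8 ± 13.6 in CXCL12-deficient libraries, and Pcdh19 had 23.6 ± 6.84 and 23.2 ± 2.05 CPM (SD, n = 3). Of 7 cadherins tested that are not protocadherins, the endothelial cadherin Cdh5 fell from 4.78 ± 1.29 CPM to 0.400 ± 0.279 (a log2 difference of −3.56 ± 0.71, adjusted p = 0.026, edgeR), and 0 rose. Over all genes edgeR called 3.94% lower and 0.639% higher. DESeq2 called 2 of the list of these cadherins lower and 0 higher, against 6.65% and 1.94% of all genes. Of the 5 catenins, which tie classical cadherins to actin, 0 were called (0 at an unadjusted p below 0.05, edgeR), with Ctnnb1 at 353 and 324 CPM and Ctnna1 at 208 and 225 CPM. The difference between these lists and the beta members was not tested.

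The genes known to control the clusters were measured too. CTCF and cohesin bring the distal enhancers of the clusters to the promoter of the chosen exon. Of 12 such genes 0 were called by edgeR. At an unadjusted p below 0.05 (edgeR), 4 were lower and 0 higher, against 11.3% and 7.59% of all genes. The log2 fold change was positive for 1, against 52.6% of all genes, and the median was −0.25. DESeq2 called 1 lower and 0 higher, against 6.65% and 1.94% of all genes. Ctcf was at 109 ± 25.2 CPM in controls and 80.0 ± 7.90 in CXCL12-deficient libraries with overlapping groups (log2 fold change −0.45 ± 0.19, adjusted p = 0.25, edgeR). Smc1a, a core cohesin subunit, was at 104 and 86.5 CPM (adjusted p = 0.59, edgeR). All CXCL12-deficient libraries were below all controls at the cohesin subunits Rad21 (log2 fold change −0.62, adjusted p = 0.12, edgeR) and Stag2 (−0.76, adjusted p = 0.069, edgeR). The same held for 13.9% of all genes, and these subunits were picked out after their values were seen. Of 9 genes of the silencing of the clusters, which include DNA methyltransferases and Smchd1, Dnmt1 fell from 88.2 ± 22.2 to 34.7 ± 8.27 CPM (−1.34 ± 0.24, adjusted p = 0.017, edgeR) and 0 rose. By the same test 3.94% of all genes were called lower and 0.639% higher. Dnmt1 copies methylation marks after DNA replication. The list median was 0.03. Leukocyte markers were lower in the same libraries, with Ptprc, 5 of 5 neutrophil and 3 of 4 macrophage markers called, and their part in the values of Dnmt1 and the cohesin genes was not tested. DNA methylation and factor binding were not measured.

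Downstream of the cytoplasmic ends, 2 of 10 genes of the WAVE complex, an actin regulator that some protocadherins recruit, were lower: Cyfip2 (77.6 to 26.6 CPM, −1.55 ± 0.28, adjusted p = 0.019, edgeR) and Nckap1l (55.4 to 11.2 CPM, −2.31 ± 0.35, adjusted p = 0.011, edgeR). No WAVE gene was called higher, and over all genes edgeR called 3.94% lower and 0.639% higher. At an unadjusted p below 0.05 (edgeR), 2 of the 10 were lower and 1 higher, against 11.3% and 7.59% of all genes. Nckap1l is best known as the WAVE subunit of blood cells and Cyfip2 from neurons. The pan-leukocyte marker Ptprc was at 59.8 to 107 CPM in controls and 10.2 to 16.9 in CXCL12-deficient libraries. The part of leukocyte RNA in these differences was not tested. Of 8 intracellular kinases and partners 0 were called by edgeR (1 higher and 1 lower at an unadjusted p below 0.05, median −0.15), with Marcks at 357 and 488 CPM (adjusted p = 0.20, edgeR) and Pdcd10 at 101 and 91.6 CPM. Of 7 genes of shedding and gamma-secretase, the proteases that cut protocadherins at the membrane, 0 were called by edgeR (1 higher and 1 lower at an unadjusted p below 0.05, median 0.01), with Ncstn at 375 and 523 CPM (adjusted p = 0.16, edgeR). The 15 genes around the clusters gave 0 calls by edgeR, 2 lower and 0 higher at an unadjusted p below 0.05, 6 positive values and a median of −0.03, with Hdac3 at 129 ± 3.98 and 159 ± 14.8 CPM (adjusted p = 0.28, edgeR) and Ik at 102 and 96.1 CPM. For each of these lists the unadjusted counts stand beside 11.3% lower and 7.59% higher over all genes (edgeR).

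Since the family is best known from neurons, markers of neural cells were examined. The 4 neuron markers in the table summed to 1.80 to 3.75 CPM in controls and 0.0417 to 0.844 in CXCL12-deficient libraries, with Snap25 at 0 in all but 1 library and Stmn2 at 0 in all CXCL12-deficient libraries. The 4 Schwann cell markers summed to 1.59 to 3.82 and 0.480 to 1.37 CPM, and Cdh19 was at 0 in all controls. Of these markers 1 in each list passed the filter, and 0 were called (edgeR; 1 neuron marker lower at an unadjusted p below 0.05, against 11.3% of all genes). The part of neural cells in the results was not tested.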

How the data were processed

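RNA was measured by sequencing of SMARTer-amplified mRNA in 6 libraries, 3 per group, grouped by the labels. The authors deposited raw read counts per gene, a normalized signal equal to these counts divided by 1 factor per library (largest relative deviation 5.1e-15), and regularized log2 values. Per the submitters' processing notes, the tools were Bowtie2 2.2.1, TopHat2 2.0.13, HTSeq, DESeq2, Cuffdiff, Cufflinks and FastQC, and the build was mm10. The sources used here do not give the tools' roles, the annotation or the strand setting. Of 17131 entries, 4 Cxcl12 exons were summed to 1 gene. No entry was named as an Rpl, Rps or mitochondrial gene. Depth was 20133299 to 28009257 counts.

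Counts were fitted with the robust quasi-likelihood test of edgeR 4.0.16 (R 4.3.3; filterByExpr, minimum count 10, minimum total 15; TMM factors 0.955 to 1.05), with Benjamini-Hochberg adjustment over 13926 genes and a threshold of 0.05. SE came from the F statistic. CPM are TMM-scaled. Single values were also permuted exactly. The steps were tested on simulated counts. Alternatives were other scalings and filters, no robust shrinkage, DESeq2 1.42.0, limma 3.58.1 (voom, and the deposited log2 values), a threshold of 0.01 and leaving out each library. Lengths and coordinates came from GENCODE M21 (GRCm38).

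The members and the 20 lists (137 genes, 4 found under an older symbol, 8 unmatched) were chosen with earlier results of these data known. Named were called members, the 3 highest per kilobase in each cluster, C-type members, the 2 tested members changed most in either direction, and from each list up to 4 called genes or otherwise the 2 most abundant. Remaining members are given by value or range. One of the list genes so chosen is not reported here.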

Additional observations from a re-analysis of the deposited data

How the results depend on the processing

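The count of 1 member called higher was unchanged under DESeq2 size factors, upper quartile factors, both other filters, no robust shrinkage, limma-voom and limma on the deposited log2 values, and in each of these the member was Pcdhb7. DESeq2 called 3 members and an adjusted p below 0.01 left 0. With 1 library left out the count was 0 to 1, and the 1 was Pcdhb10, without CXCL12-deficient replicate 1. Lower calls were 0 under every alternative run (edgeR also gave 0 lower at an unadjusted p below 0.05, and DESeq2 0). The median log2 fold change of beta members was 0.18 on the deposited log2 values, which are shrunken by construction, and 0.089 to 0.66 with 1 library left out, lowest without CXCL12-deficient replicate 3. The log2 fold change of Pcdhac2 was 0.68 without control replicate 1. With any 1 library left out, 74 to 577 genes of the whole table were called, against 637 with all 6, and DESeq2 called 1328. The order by level per kilobase kept 7 of the 9 leading members with either other length, of which that without other coding genes was chosen after seeing the data. No paired analysis was possible because the labels give no replicate numbers. Those used here follow the order of deposition and only name libraries. Depth limits the alpha members and the 9 members that were not tested.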
